A study of Mus musculus with 10 samples.

Results

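Ribosome footprints were compared between the cerebellum of Bmal1-/- mice and that of Bmal1+/+ littermates, with 2 libraries of each genotype. A footprint is the stretch of mRNA that a ribosome covers and so protects from RNase. Its count per gene, relative to the library, reflects how many ribosomes sat on that gene's mRNA. The genes compared were those whose mean read count over the 8 libraries of the authors' table was 100 or more, which were 11676 of 22046 genes (53%). The other genes comprised 8166 with a mean read count of 0 and 2204 above 0 and under 100. The filter takes no account of genotype, but a gene without reads in 1 or more of the 8 libraries has a mean of 0 and is left out, so genes silent in one genotype were not compared. At the edge of the filter, B3galt4 was taken in with a mean read count of 100.09 (footprints of 5.4, 6.87, 6.36 and 4.7 RPKM in knockout 1 and 3 and wild type 2 and 3). Hey2 was left out with 99.96 (4.59, 6.47, 9.41 and 6.72 RPKM).

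The mice had a C57BL/6 background, were born to Bmal1+/- parents and were kept under 12 h light and 12 h dark. Because the Bmal1 allele was inherited, its loss was not limited to the cerebellum or to one of its cell types. Frozen cerebellum was lysed with cycloheximide, which holds ribosomes in place, and fragments of 28 to 34 nt left after RNase I were kept. The series has 10 samples, of which 4 are the footprint libraries of knockout animals 1 and 3 and wild-type animals 2 and 3, and 4 more are the total RNA of the same lysates. The labels state neither the age and sex of the mice nor the hour at which tissue was taken.

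BMAL1, encoded by Arntl, is the core activator of the circadian clock. It pairs with CLOCK, or with the CLOCK paralog NPAS2, on E-box motifs and drives Per, Cry and Nr1d genes, whose proteins in turn repress the activator. Footprints of a gene follow both the amount of its mRNA and the number of ribosomes each mRNA carries, and the kinase complex mTORC1 is a main regulator of the latter. Clock genes cycle in most tissues, the cerebellum included.

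The footprint libraries of knockout 1 and 3 held 41.0 and 30.1 M recovered reads and those of wild type 2 and 3 held 38.1 and 27.7 M, so depth did not follow genotype. The median gene had between 844 and 1198 reads in a library. Libraries of 1 genotype differed by more than counting noise, with chi-square over its degrees of freedom of 46.3 for the knockout pair and 28.9 for the wild-type pair. The median absolute log2 difference between libraries of the same genotype was 0.23 for knockout and 0.17 for wild-type libraries. Levels are in RPKM, reads scaled by library depth and by a factor that differs between genes, and are compared only within a gene. Because of the scaling by depth, a change common to all genes would not show in them.

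Arntl (ENSMUSG00000055116; mm10 chromosome 7, 113207465 to 113314126) had fewer footprints in the knockout and more total RNA. Its footprints stood at 124 and 107 RPKM in the knockout libraries and at 258 and 295 RPKM in the wild-type libraries. The groups did not overlap, and the footprints fell by 1.26 on the log2 scale (SE 0.17, adjusted p = 0.00504). Its total RNA stood at 267 and 272 RPKM in knockout animals and at 179 RPKM in each wild-type animal, higher by 0.59 log2 units (SE 0.10, adjusted p = 0.00158). Footprints per total RNA, computed within each animal, therefore differed by -1.85 log2 units (SE 0.21, adjusted p = 3.57e-05). Which exon is deleted is not in the labels, and values for a whole gene do not show which part of the mRNA the remaining footprints covered.

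Outside the targeted gene most footprint levels lay close together in the genotypes, and a small group of genes carried large changes. Of the 11676 genes, 131 (1.12%) were called, meaning a Benjamini-Hochberg adjusted p under 0.05 in limma over all genes. Of these, 78 (0.668%) were higher and 53 (0.454%) were lower in the knockout. In all 131 called genes the genotypes did not overlap, so for a called gene this adds nothing to the call. Of the genes not called, 38.8% did not overlap either. The log2 fold change lay within 1 unit of 0 for 97.8% of genes, with a median of -0.03, a 5th percentile of -0.55 and a 95th percentile of 0.49. By at least 1 log2 unit, 49 called genes were higher and 32 were lower. The median called change was 1.18 among the genes that rose and -1.15 among those that fell. In bulk tissue, fewer cells of a type and less RNA per cell cannot be told apart.

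With 2 libraries a side the count rests on how the spread of each gene is borrowed from other genes. The spread was modelled against read depth. Without such a trend 17 genes were called, and with a trend on mean RPKM 54 were called. Of the 131 genes, 60 were also called in each of the 4 fits that leave out a library, and 3 (Bcl2, Rara and Car9) in none of them.

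**Figure D1:**
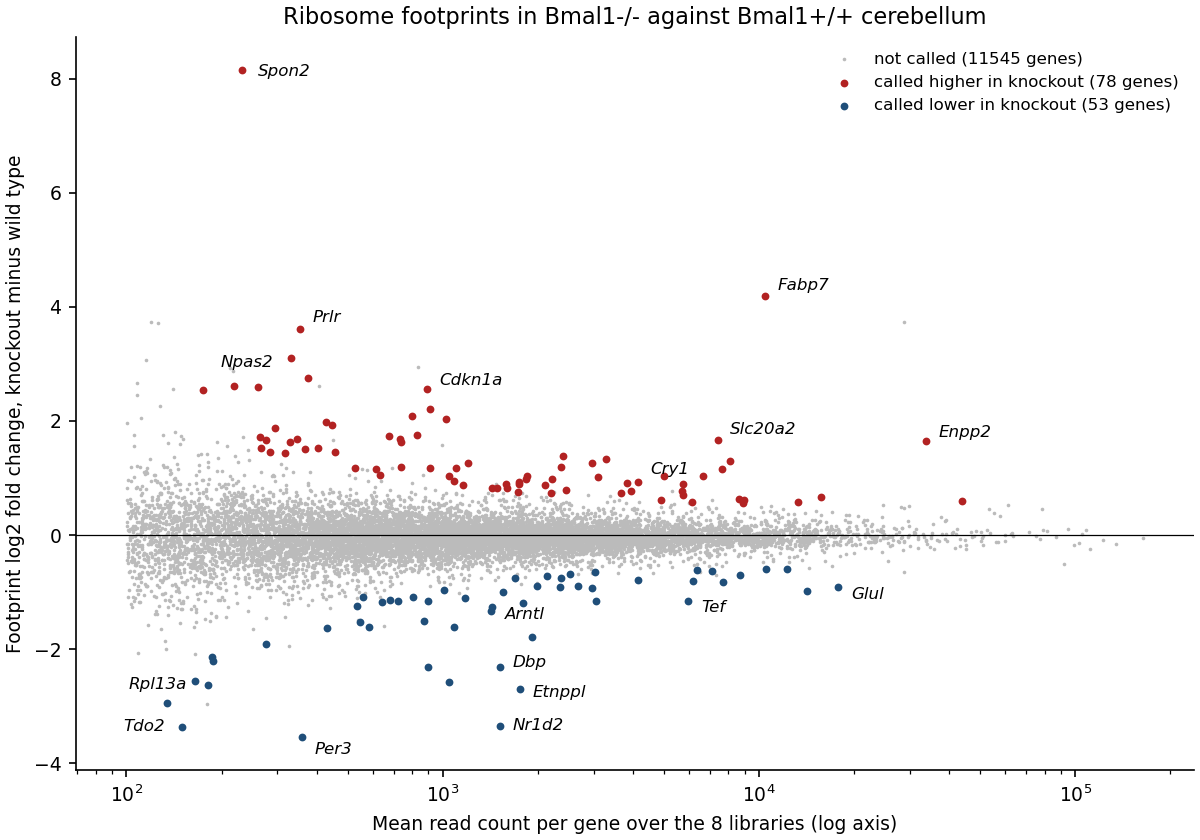
Footprint log2 fold change (vertical axis, knockout minus wild type) of each of the 11676 genes against its mean read count on a log axis, with the 78 genes called higher in red, the 53 called lower in blue and the others in grey. Most genes lie near 0, Spon2 stands alone at 8.15, and Per3 is lowest among called genes at -3.54.

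Clock genes that BMAL1 drives through E-boxes were lower in the knockout. Of 15 such genes, all passed the read filter. Of them 12 fell, beside 0.454% of all genes, 1 rose (Cry1), beside 0.668%, and Cry2 and Usp2 were not called. Their median log2 fold change was -1.34, beside -0.03 over all genes, and the genotypes did not overlap for 14 of them, beside 39.4% of all genes. By limma-voom on recovered reads 13 of the 15 were called, but without a variance trend 3 were, and with a trend on mean RPKM 8 were.

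The period genes encode repressors that return to the nucleus and silence CLOCK and BMAL1. Per3 (chromosome 4, 151003652 to 151044665) had footprints of 0.958 and 0.427 RPKM in the knockout against 6.05 and 9.49 RPKM in the wild type. Per2 had 9.32 and 15.3 RPKM against 32 and 35.9 RPKM, and Per1 had 11.1 and 16.5 RPKM against 34.4 RPKM in each wild-type library. In all 3 genes both knockout libraries lay below both wild-type ones. Per3 fell by 3.54 (SE 0.39, adjusted p = 0.00176), Per2 by 1.50 (SE 0.24, adjusted p = 0.0169) and Per1 by 1.34 (SE 0.20, adjusted p = 0.00977), all on the log2 scale. The Per3 values rest on few reads, 106 and 35 in the knockout.

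Cryptochromes are the partners of the period proteins, and here they parted from them. Cry1 had 434 and 532 RPKM in the knockout against 248 and 256 RPKM in the wild type. It rose by 0.93 log2 units (SE 0.14, adjusted p = 0.00915), and both knockout libraries lay above both wild-type ones. Cry2 had 113 and 132 RPKM against 111 and 122 RPKM, with overlapping groups and no call (0.07, SE 0.13, adjusted p = 0.926).

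The REV-ERB repressors, which bind the Arntl and Nfil3 promoters, had some of the lowest footprint ratios. Nr1d2 (chromosome 14, 18204054 to 18239127) had 1.2 and 1.53 RPKM in the knockout against 14.2 and 13.4 RPKM in the wild type. Nr1d1 (chromosome 11, 98767932 to 98775333) had 36.9 and 70.2 RPKM against 273 and 339 RPKM. Neither gene's genotypes overlapped. Nr1d2 fell by 3.34 (SE 0.17, adjusted p = 4.77e-06) and Nr1d1 by 2.58 (SE 0.27, adjusted p = 0.00144) on the log2 scale.

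The PAR bZIP factors, activators at D-box motifs, fell together. Dbp (chromosome 7, 45705088 to 45710203) had 3.22 and 3.66 RPKM against 16 and 18.2 RPKM, lower in the knockout (-2.31, SE 0.16, adjusted p = 6.16e-05). Hlf had 100.3 and 95.1 RPKM against 205 and 231 RPKM (-1.16, SE 0.13, adjusted p = 0.00214). Tef had 707 and 681 RPKM against 1563 and 1542 RPKM (-1.16, SE 0.11, adjusted p = 0.000793). In none of the 3 did the genotypes overlap.

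Other repressors and outputs of the E-box loop also fell. Ciart, whose product CHRONO represses the activator, had 2.19 and 1.43 RPKM against 14.6 and 12.8 RPKM (-2.94, SE 0.43, adjusted p = 0.00915). Wee1, a cell cycle kinase, had 1.17 and 0.958 RPKM against 3.71 and 2.86 RPKM (-1.61, SE 0.24, adjusted p = 0.00977). The genotypes were apart in both. Bhlhe40 and Bhlhe41, which compete with BMAL1 for E-boxes, changed by -1.20 (adjusted p = 0.00354) and -0.90 (adjusted p = 0.0296). The Bhlhe41 call was lost without wild type 2. The ubiquitin protease gene Usp2 had 66.6 and 84.4 RPKM against 108 and 109 RPKM, but its log2 fold change of -0.53 (SE 0.16) was not called (adjusted p = 0.192).

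**Figure D2:**
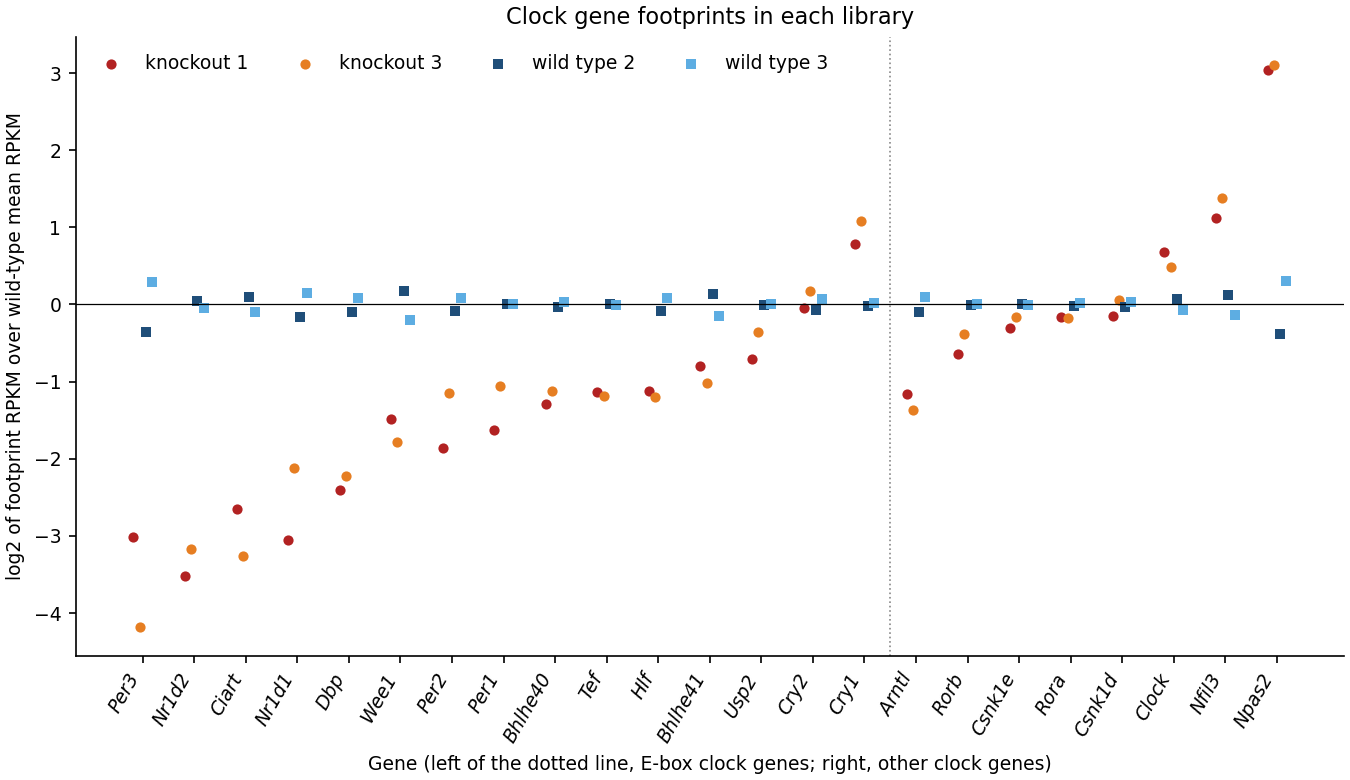
Footprint RPKM of 15 E-box clock genes and the other clock genes described in the text, in knockout 1, knockout 3 (circles) and wild type 2 and 3 (squares), as log2 over the wild-type mean (vertical axis), with E-box clock genes left of the dotted line and other clock genes right of it. The wild-type squares stay near 0, the knockout circles of 13 of the 15 E-box genes lie below them, and those of Npas2 lie farthest above.

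Promoters of these genes were read from RefSeq (GRCm38.p6), 250 bases before to 50 bases after each start, and 12 of the 15 genes had one in the table. The canonical E-box CACGTG, searched on both strands (it is its own reverse complement), stood in 6 of their 14 promoters (42.9%), beside 9.95% of the 11960 promoters of all genes compared. These genes were listed because E-boxes drive them, so the higher share follows from the choice of list and is not a result of these data. The windows below, shown because 4 of the 5 genes that hold a match fell and 1 rose, carry the E-box in capitals with 25 bases on each side. They lie at chr11:69098758-69098813 (+) for Per1, chr3:95882256-95882311 (-) for Ciart, chr6:145865543-145865598 (-) for Bhlhe41, chr15:81811251-81811306 (+) for Tef and chr10:85185084-85185139 (-) for Cry1, each written 5′ to 3′ on the gene's strand.
Per1: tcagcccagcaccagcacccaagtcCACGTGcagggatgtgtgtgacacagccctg
Ciart: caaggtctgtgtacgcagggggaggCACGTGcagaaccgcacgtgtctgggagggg
Bhlhe41: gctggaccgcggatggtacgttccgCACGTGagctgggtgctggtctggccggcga
Tef: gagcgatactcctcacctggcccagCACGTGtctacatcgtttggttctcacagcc
Cry1: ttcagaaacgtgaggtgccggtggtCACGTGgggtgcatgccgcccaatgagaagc

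Distances are to the RefSeq start whose promoter holds the match. The E-box begins 166 bases before it in Per1, 58 in Ciart, 153 in Bhlhe41, 138 in Tef and 60 in Cry1. The Per1 and Tef windows lie inside the gene spans, which begin at 69095217 for Per1 and 81802421 for Tef. Tef has another match at chr15:81802521-81802576, 127 bases before another of its RefSeq starts. Ciart has another match within its printed window and a further one 116 bases before its start. Presence of the letters did not separate directions over all called genes. E-boxes stood in 13% of the 54 promoters of genes that fell and in 13.2% of the 76 promoters of genes that rose. Per1 and Cry1 thus both hold the motif while one fell and the other rose.

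The D-box TTATGTAA and the REV-ERB element TAGGTCA, both searched on both strands, were rarer. The D-box stood in 0.535% of promoters of all genes compared and in 3 of the 54 promoters of genes that fell (5.56%), those of Per3, Chil1 and Coq10b, and in 1 of the 76 of genes that rose, that of Prlr. The REV-ERB element stood in 1.67% of promoters of all genes compared, in 3 of those of genes that fell (Arntl, Glul and Tdo2) and in 3 of those of genes that rose (Fabp7, Leo1 and Nfil3). The windows below show the D-boxes of Per3, the called gene with the lowest footprint ratio, and the REV-ERB elements of Fabp7 and Glul, astrocyte genes that moved in opposite directions. They lie at chr4:151044838-151044895 (-) and chr4:151044791-151044848 (-) for Per3, chr10:57784727-57784783 (+) for Fabp7, where the match is on the opposite strand, and chr1:153899846-153899902 (+) for Glul.
Per3, first: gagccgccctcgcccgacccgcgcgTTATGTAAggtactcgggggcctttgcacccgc
Per3, next: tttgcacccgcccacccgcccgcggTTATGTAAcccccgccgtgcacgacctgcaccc
Fabp7: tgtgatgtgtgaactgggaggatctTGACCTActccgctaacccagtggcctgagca
Glul: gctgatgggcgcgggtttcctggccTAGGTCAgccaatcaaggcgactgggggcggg

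Of 14 further clock genes 13 passed the read filter. Of the 13, 3 rose (Npas2 and Nfil3 among them), beside 0.668% of all genes. Arntl fell, beside 0.454% of all genes, and 9 were not called. Npas2 (chromosome 1, 39193731 to 39363236) had 8.59 and 9.03 RPKM in the knockout against 0.808 and 1.29 RPKM in the wild type. Its genotypes were far apart, and it rose by 3.10 log2 units (SE 0.31, adjusted p = 0.000852). Nfil3, a repressor at D-boxes, had 193 and 231 RPKM against 96.4 and 80.4 RPKM (1.26, SE 0.18, adjusted p = 0.00915).

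Clock itself had 22.7 and 19.8 RPKM in the knockout against 14.8 and 13.5 RPKM in the wild type. Both knockout libraries were the higher ones, but the log2 fold change of 0.58 (SE 0.13) was not called (adjusted p = 0.0708). Nor were the nuclear receptor genes Rora and Rorb and the casein kinase genes Csnk1e and Csnk1d. Rora had -0.17 (SE 0.10), Rorb -0.51 (SE 0.19), Csnk1e -0.23 (SE 0.15) and Csnk1d -0.04 (SE 0.13) as log2 fold change.

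The 15 largest increases led away from the clock, with Npas2 as the clock gene among them. Spon2 (chromosome 5, 33198184 to 33218455), a secreted matrix protein, had 202 and 262 RPKM in the knockout against 0.732 and 0.881 RPKM in the wild type. Fabp7 (chromosome 10, 57784881 to 57788450), a carrier of fatty acids inside Bergmann glia and astrocytes, had 809.8 and 678 RPKM against 43.7 and 37.7 RPKM. Neither gene's genotypes came near each other. Spon2 was 288 times as high by linear means (log2 fold change 8.15, SE 0.33, adjusted p = 7.25e-07) and Fabp7 18.3 times (4.19, SE 0.13, adjusted p = 7.57e-08). The wild-type footprints of Spon2 rest on 16 and 14 reads, against 4775 and 4579 in the knockout.

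The other increases of the 15 had smaller folds than Spon2 and Fabp7. Cdkn1a, the cell cycle inhibitor p21, had 28.3 and 39.2 RPKM against 6.04 and 5.3 RPKM. Il17rd, which restrains FGF receptor signalling, had 23.9 and 24.4 RPKM against 4 RPKM in each wild-type library. Mapk13, a p38 kinase, had 13.7 and 8.41 RPKM against 2.32 and 1.45 RPKM. All 3 had both knockout libraries above both wild-type ones, with log2 fold changes of 2.56 (SE 0.21, adjusted p = 0.000234), 2.59 (SE 0.30, adjusted p = 0.00234) and 2.54 (SE 0.42, adjusted p = 0.018). Lgr6, an R-spondin receptor, had 14.8 and 18.6 RPKM against 4.29 and 4.43 RPKM, higher in the knockout (1.93, SE 0.25, adjusted p = 0.00464). Prlr, the prolactin receptor, had 40.5 and 52.6 RPKM against 8.46 and 1.65 RPKM (3.62, SE 0.58, adjusted p = 0.0159), with wild-type libraries that differ 5.11 times.

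Col4a1, a basement membrane collagen, had 26.3 and 33.3 RPKM against 4.6 and 10.7 RPKM. Mmp14, a membrane-bound metalloprotease that cleaves matrix, had 40 and 43.2 RPKM against 9.45 and 10.9 RPKM. Frem2, a protein of the extracellular matrix, had 239.9 and 325 RPKM against 68 and 74 RPKM. The knockout libraries were the higher ones in each, and the log2 fold changes were 2.08 (SE 0.33, adjusted p = 0.0159), 2.03 (SE 0.18, adjusted p = 0.000382) and 1.98 (SE 0.26, adjusted p = 0.0051). Abca4, a retinoid transporter, had 11.6 and 9.17 RPKM against 3.32 and 0.694 RPKM, and its call (2.75, SE 0.56, adjusted p = 0.0473) was lost without either knockout library. Igsf1, a membrane glycoprotein, changed by 2.21 (adjusted p = 0.000234), Mrln, which encodes a micropeptide that inhibits the calcium pump SERCA, by 2.62 (adjusted p = 0.00355) and Asxl3 by 1.88 (adjusted p = 0.0209). The Asxl3 call was lost in limma-voom (adjusted p = 0.0571).

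Among the 15 largest decreases, Per3, Nr1d2, Ciart, Nr1d1 and Dbp were the clock genes described above. Among the others were enzymes of amino acid and phospholipid metabolism. Tdo2, which opens the tryptophan ring, had 0.873 and 0.649 RPKM in the knockout against 8.25 and 7.39 RPKM in the wild type. Etnppl, a phosphoethanolamine phospholyase of astrocytes, had 9.19 and 9.91 RPKM against 61.7 and 62.6 RPKM. In both genes the 2 knockout libraries lay far below the wild type, and those of Tdo2 rest on 98 and 54 reads. Tdo2 fell by 3.36 (SE 0.40, adjusted p = 0.00256) and Etnppl by 2.70 (SE 0.15, adjusted p = 6.96e-06) on the log2 scale.

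Sulf1, which trims sulfate groups from heparan sulfate, had 4.85 and 5.15 RPKM against 24.9 and 25.2 RPKM. Gpld1, a phospholipase that releases GPI-anchored proteins, had 182 and 243 RPKM against 753 and 694 RPKM. Chil1, a chitinase-like protein of astrocytes, had 0.475 and 0.531 RPKM against 2.87 and 3.1 RPKM. The genotypes were apart in all 3, with log2 fold changes of -2.32 (SE 0.18, adjusted p = 0.000169), -1.78 (SE 0.17, adjusted p = 0.000699) and -2.55 (SE 0.37, adjusted p = 0.00915). Clec3b (-2.20, adjusted p = 0.0499) and Fibin (-2.13, adjusted p = 0.0316) had knockout libraries well apart from each other, 4.05 and 10.1 RPKM for Clec3b and 0.589 and 1.05 RPKM for Fibin, and both calls were lost without knockout 1.

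Rgs16, which shortens signals of G alpha subunits, had 3.39 and 3.19 RPKM against 11.9 and 12.9 RPKM (-1.91, SE 0.30, adjusted p = 0.0132). Rasd2, a small GTPase also called Rhes, had 19.4 and 29 RPKM against 71.7 and 75.5 RPKM (-1.63, SE 0.28, adjusted p = 0.0209). Neither gene's genotypes overlapped.

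**Figure D3:**
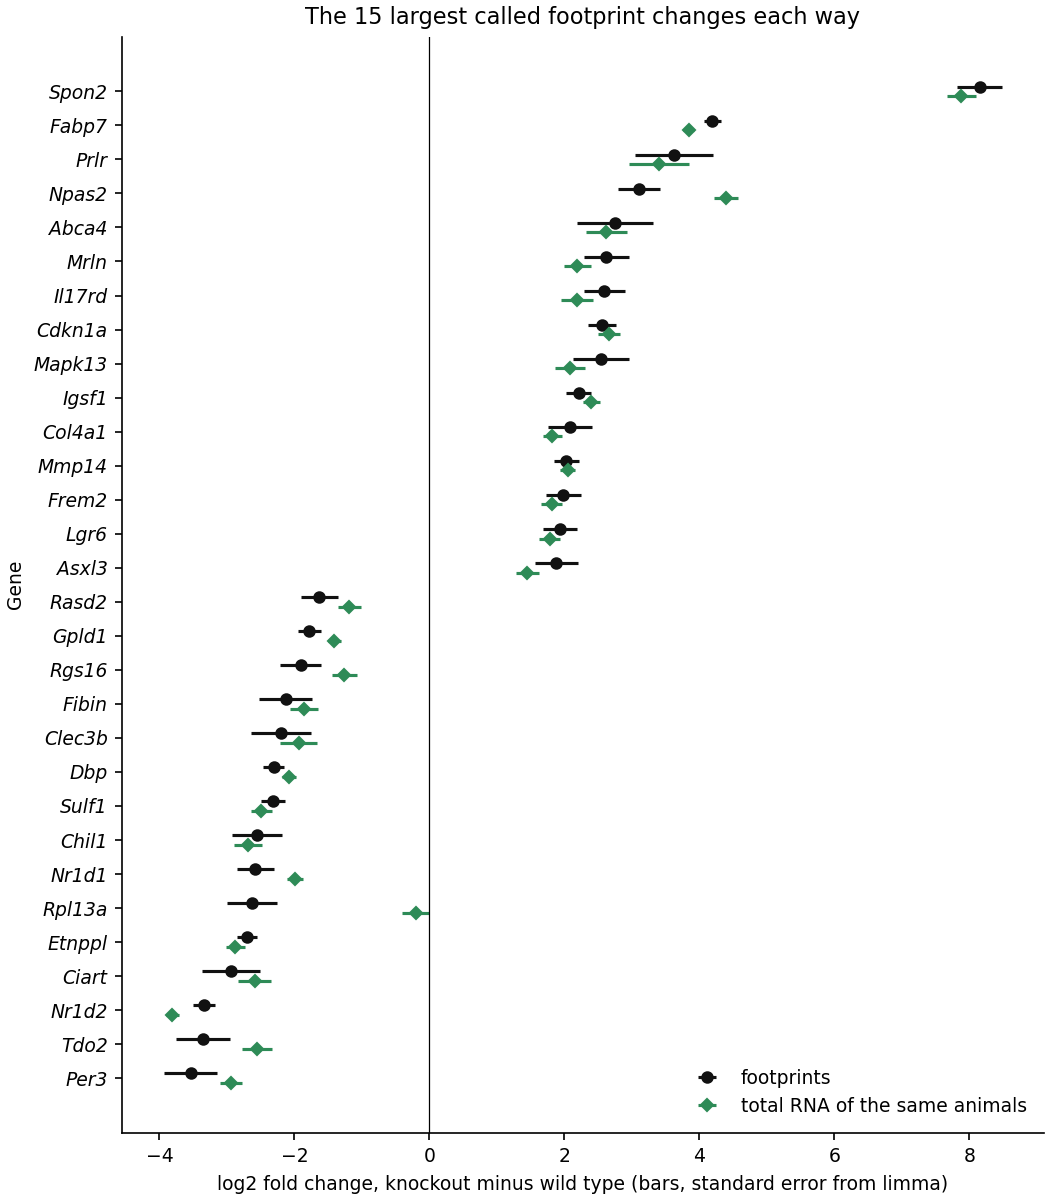
Log2 fold change (horizontal axis, knockout minus wild type) with its standard error from limma for the 15 genes with the largest called footprint increase and the 15 with the largest decrease, for footprints (black circles) and total RNA of the same animals (green diamonds). Spon2 has a footprint change of 8.15 beside a total RNA change of 7.88, while Rpl13a has a footprint change of -2.63 and a total RNA change of -0.20.

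The difference between footprints and total RNA was then tested itself, as the ratio within each animal. Arntl was the gene called (0.00856% of 11676), while 503 genes (4.31%) had an unadjusted p under 0.05. In total RNA alone 1270 of the same genes (10.9%) were called. With 1 animal left out the count of called genes lay between 1 and 280, the highest without knockout 3, with 19 called without knockout 1 and 8 without wild type 2. Total RNA of the same animals changed by 7.88 for Spon2, 3.84 for Fabp7, -2.94 for Per3 and -3.81 for Nr1d2, beside footprint changes of 8.15, 4.19, -3.54 and -3.34. Npas2 had a footprint change of 3.10 beside a total RNA change of 4.39, a difference of -1.30 (SE 0.34) that was not called (adjusted p = 0.629).

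Of the genes called in footprints, 4 were not called in total RNA, and they are named here after their values were seen. Rpl13a, a protein of the large ribosomal subunit, had 3.88 and 2.91 RPKM of footprints in the knockout against 20.2 and 21.4 RPKM in the wild type, while its total RNA was 219 and 251 RPKM against 266 and 271 RPKM. Its footprints rest on 18 and 10 reads against 87 and 67 reads, and the fall of 2.63 (adjusted p = 0.00687) was lost in limma-voom (adjusted p = 0.129). The difference from total RNA was -2.43 (SE 0.45, adjusted p = 0.0686). Ribosomal protein genes have many near-identical copies in the genome, so reads of Rpl13a could be split between copies and its values are uncertain.

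The other 3 genes had smaller gaps. Tcf3, an E protein that binds E-box variants, had footprints of 27.3 and 21.6 RPKM against 14.1 and 7.98 RPKM, and total RNA of 145 and 160.2 RPKM against 146 and 141 RPKM. Its ratio differed by 1.11 (SE 0.22, adjusted p = 0.111). Swt1, an endoribonuclease gene, changed by -1.13 in footprints (adjusted p = 0.0445) and -0.34 in total RNA (adjusted p = 0.127). Slc38a2, a neutral amino acid transporter, changed by -0.59 in footprints (adjusted p = 0.0417) and -0.24 in total RNA (adjusted p = 0.069). For Tcf3, Swt1 and Slc38a2 the footprint call was lost in at least 2 of the 4 fits with a library left out.

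The series title names mTORC1 inhibition, and the genes of that pathway were described by the same fit. None of the 45 mTORC1 pathway genes compared was called by limma or limma-voom, and 0 had an unadjusted p under 0.05, beside 10.2% of all genes. Their median log2 fold change was -0.00 and their range -0.32 to 0.38. The kinase gene Mtor had 363 and 392 RPKM in the knockout against 374 and 392 RPKM in the wild type (-0.02, SE 0.12). Rheb, the GTPase that activates the complex, had 1893 and 1388 RPKM against 1811 and 1453 RPKM (-0.00, SE 0.17). The inhibitors Tsc1 and Tsc2 had -0.13 (SE 0.14) and -0.00 (SE 0.13). In all 4 genes the difference between genotypes was under 2 SE. These are footprints on the mRNAs of the pathway and do not measure its kinase activity. Being scaled by depth, neither they nor the lists below can show a change in translation common to all genes.

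mRNAs that mTORC1 regulates were described next. TOP mRNAs, which carry a terminal oligopyrimidine tract and respond to mTORC1 in translation, include those of ribosomal proteins and elongation factors. Of 80 ribosomal protein genes 46 passed the read filter, and 1 was called, Rpl13a, with a median log2 fold change of -0.09. The 72 with reads in every library summed to 1439 and 1442 RPM (reads per 1 M reads of the library) in the knockout against 1628 and 1495. For 75 respiratory chain genes the sums were 21586 and 21152 against 21982 and 20498. Few reads were counted for the ribosomal protein list, and near-identical copies leave its values uncertain, as for Rpl13a. Rpl4 had 50.2 and 52.5 RPKM against 59.7 and 54.4 RPKM (-0.15, SE 0.11), and Rpl8 had 36.8 and 38.7 RPKM against 47.2 and 42.4 RPKM (-0.25, SE 0.12), neither called. Of 18 other TOP mRNAs 1 was called, with a median of -0.05. It was Vim, an intermediate filament gene, with 258 and 293 RPKM against 419 and 436 RPKM (-0.63, SE 0.12, adjusted p = 0.0324), and this call was lost in 3 of the 4 fits with a library left out.

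The elongation factor gene Eef2 had 721 and 884 RPKM against 883 and 851 RPKM, with overlapping groups (-0.12, SE 0.12, adjusted p = 0.85). None of 32 initiation factor genes was called by limma or limma-voom, 0 had an unadjusted p under 0.05, and their median was -0.03. Eif4a2, an RNA helicase of the cap-binding complex, had 6040 and 5703 RPKM against 5210 and 5919 RPKM, also with overlapping groups (0.08, SE 0.11). None of 16 genes of the integrated stress response was called by either tool, 0 had an unadjusted p under 0.05, and the median was -0.08.

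The ion channel, synaptic vesicle and autism-associated lists together held 85 genes compared, of which 1 (1.18%) was called, near the 1.12% over all genes. Kcna2, a voltage-gated potassium channel of basket cell terminals and axons, had 2799 and 2565 RPKM in the knockout against 1825 and 1556 RPKM in the wild type. Both knockout libraries were higher, and the gene rose by 0.67 (SE 0.12, adjusted p = 0.0287), a call lost without wild type 3. The other 25 of 26 ion channel genes were not called, and 7 of the 26 had an unadjusted p under 0.05, beside 10.2% of all genes. Cacna1a, the P/Q-type calcium channel of Purkinje cells, had 154 and 175 RPKM against 153 and 169 RPKM (0.03, SE 0.12).

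None of 26 synaptic vesicle genes was called by limma or limma-voom, while 8 had an unadjusted p under 0.05, beside 10.2% of all genes. Their median was -0.02 in footprints and 0.28 in total RNA. Slc17a7, the glutamate loader of granule neuron vesicles, had 895 and 1057 RPKM against 689.8 and 817 RPKM (0.37, SE 0.13, adjusted p = 0.29). Snap25, of the fusion machinery, had 2078 and 1693 RPKM against 2371 and 2093 RPKM (-0.25, SE 0.13, adjusted p = 0.591). None of 35 autism-associated genes was called by either tool, 4 had an unadjusted p under 0.05, and their median was -0.02. Reln, a secreted guidance protein of granule neurons, had 3001 and 3151 RPKM against 2335 and 2877 RPKM (0.25, SE 0.12, adjusted p = 0.553).

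Of 13 glucocorticoid-induced genes Cdkn1a rose, Per1 and Zbtb16 fell, and 10 were not called by limma, with a median of -0.31. By limma-voom 4 of them were called, these 3 and Tsc22d3. Over all 11676 genes limma called 1.12% and limma-voom called 182 genes. Zbtb16, a zinc finger repressor, had 10.1 and 8.13 RPKM against 30 and 23 RPKM (-1.53, SE 0.25, adjusted p = 0.0159). The glucocorticoid-induced leucine zipper gene Tsc22d3 had 119 and 155 RPKM against 225 and 207 RPKM, with groups apart but no call by limma (-0.67, SE 0.15, adjusted p = 0.0708). None of 11 heat shock and cold genes was called by limma and 1 was by limma-voom. Of the 11, 5 had an unadjusted p under 0.05, beside 10.2% of all genes, and the median was -0.37. Hspa5, the chaperone of the endoplasmic reticulum, had 244 and 227 RPKM against 351 and 299.6 RPKM (-0.46, SE 0.12, adjusted p = 0.121).

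None of 13 immediate early genes was called by either tool and 4 had an unadjusted p under 0.05, beside 10.2% of all genes. Their median was -0.29, but this median lay between -0.50 and 0.05 under other scalings. None of 74 respiratory chain genes was called by limma or limma-voom (1 had an unadjusted p under 0.05, median 0.00), nor of 22 antioxidant genes (1, median -0.01), 21 cholesterol genes (2, median 0.08) or 10 interferon and antigen presentation genes (2, median -0.02). Atp5b, the catalytic subunit of ATP synthase, had 3310 and 3224 RPKM against 3276 and 3032 RPKM (0.05, SE 0.11).

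Genes of glial metabolism held 4 genes called by limma, beside 131 of all 11676 genes (1.12%). By limma-voom 6 were called, beside 182 of all genes. Of 13 astrocyte enzymes and carriers of lipids and amino acids, Fabp7 rose, and Tdo2, Etnppl and Glul fell. Fabp7, Tdo2 and Etnppl were among the largest changes described above, and the list was chosen with earlier results known. Its counts therefore do not test whether genes of glial metabolism changed more often than others. Glul, which makes glutamine from glutamate, had 40.1 and 47.1 RPKM against 81.3 and 82.2 RPKM (-0.91, SE 0.12, adjusted p = 0.00396). Apoe, the main lipid carrier of the brain, had 20462 and 23405 RPKM against 14517 and 15854 RPKM, with groups apart. Its log2 fold change of 0.53 (SE 0.12) was not called by limma (adjusted p = 0.071) and was called by limma-voom (adjusted p = 0.0183). Pla2g7, a phospholipase that breaks down platelet-activating factor, had 889.7 and 835 RPKM against 605 and 602 RPKM, with 0.51 (SE 0.11), an adjusted p of 0.0508 by limma and one of 0.0137 by limma-voom. The list's median was -0.04. General markers of astrocytes and Bergmann glia had values on either side of 0. Of 8 none was called by limma and 1 by limma-voom, while 5 had an unadjusted p under 0.05, beside 10.2% of all genes. The summed level of the 8 was 5649 and 5575 RPM (reads per 1 M reads of the library) in the knockout against 5761 and 5720. Slc1a3, the glutamate transporter of Bergmann glia, had 3309 and 3044 RPKM against 3065 and 3117 RPKM, with overlapping groups.

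Of 21 genes of heparan sulfate, FGF feedback and matrix, Spon2 and Il17rd rose and Sulf1 fell, while 1.12% of all genes were called. The other 18 were not called, and the median of the list was -0.13. Spon2, Il17rd and Sulf1 were among the largest changes described above, and the list was chosen with earlier results known. Its counts therefore do not test whether such genes changed more often than others. The feedback inhibitor Spry1 had 0.677 and 0.804 RPKM against 1.99 and 2.36 RPKM, with groups apart but no call (-1.54, SE 0.39, adjusted p = 0.121). Sulf2, the other heparan sulfatase, had overlapping groups (-0.23, SE 0.20). Fgfr1 had -0.38 (SE 0.13, adjusted p = 0.289).

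**Figure D4:**
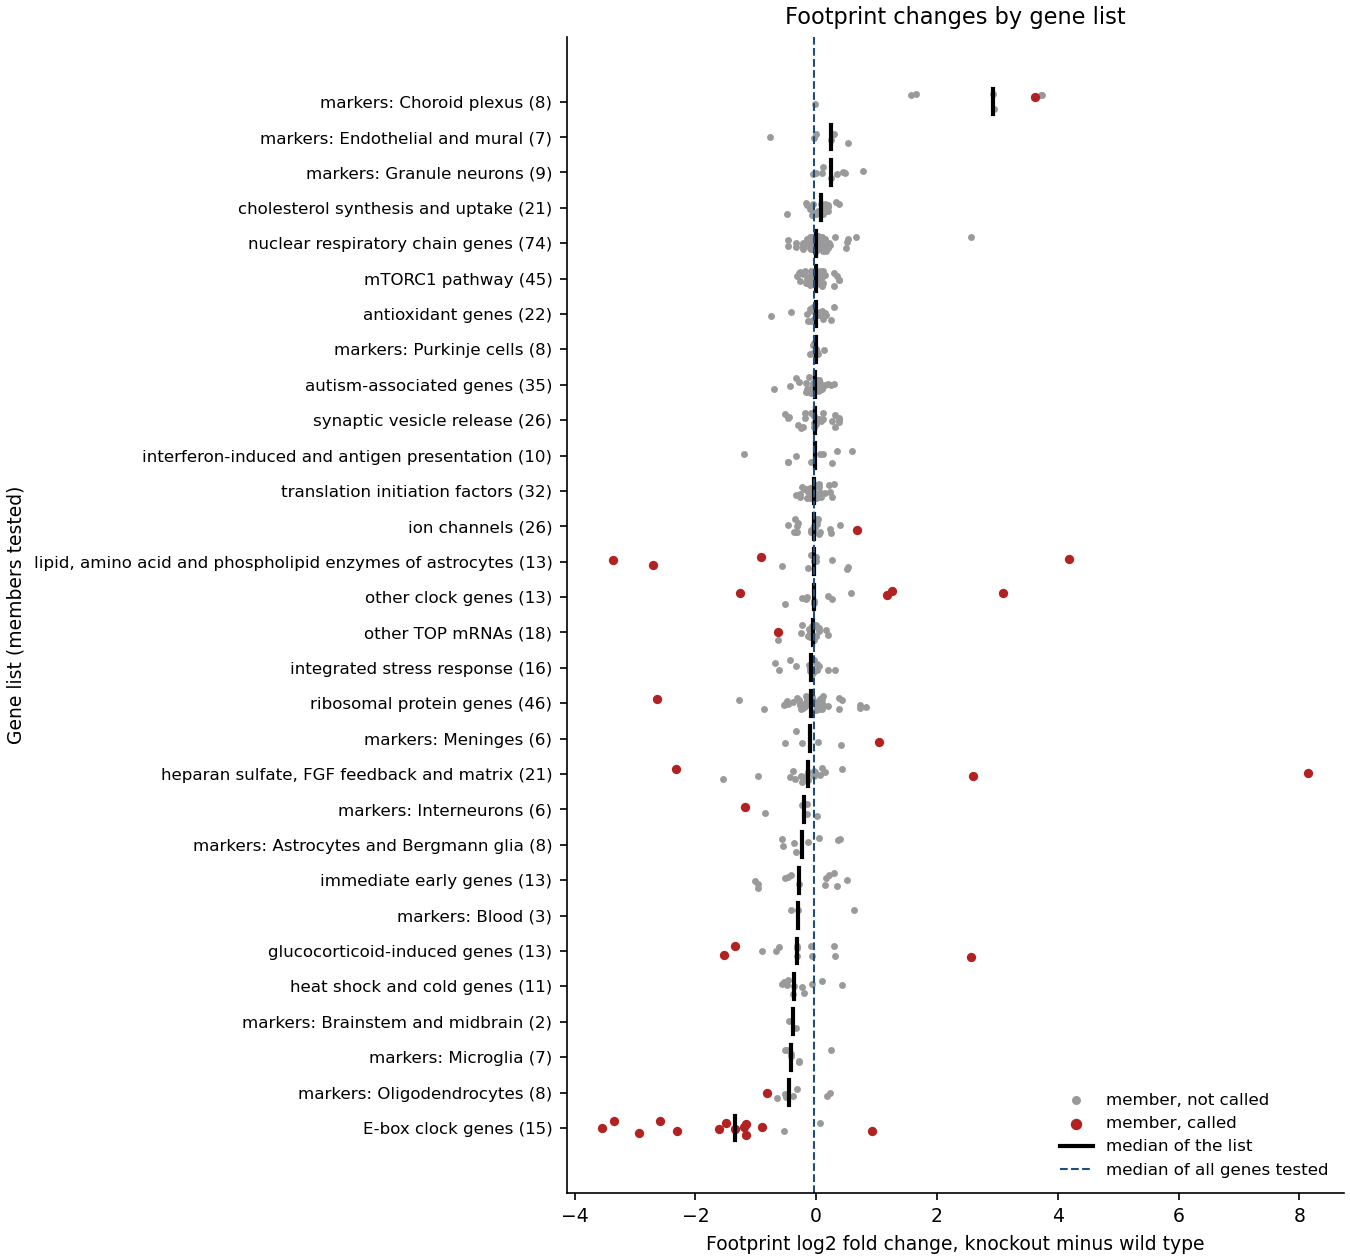
Footprint log2 fold change (horizontal axis, knockout minus wild type) of each gene compared, by gene list (vertical axis, number of genes in brackets), with called genes in red, others in grey, each list's median as a black bar and the median of all genes as a dashed line. The E-box clock list has its median at -1.34 and the choroid plexus list at 2.93, while the mTORC1 list and most others cluster around 0.

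No marker of a cell type of the cerebellum was at 0 in all 4 footprint libraries. Purkinje cell markers lay near 0: of 8 none was called by either tool, 0 had an unadjusted p under 0.05, the median was -0.01 and their summed level was 10779 and 10236 RPM in the knockout against 10811 and 10786. Car8 and Itpr1 had log2 fold changes of 0.02 (SE 0.11) and -0.05 (SE 0.12). Of 9 granule neuron markers 8 had positive values, beside 44.2% of all genes, with a median of 0.25. None of the 9 was called by limma while 2 were by limma-voom, and 4 had an unadjusted p under 0.05, beside 10.2% of all genes. Their sum was 5677 and 5950 RPM against 4300 and 5222. Of 6 interneuron markers Eomes, a marker of unipolar brush cells, fell (3.41 and 4.51 RPKM against 9.14 and 8.56 RPKM; -1.17, SE 0.23, adjusted p = 0.0386), a call lost in 3 of the 4 fits with a library left out.

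Oligodendrocyte and microglia markers had lower sums in both knockout libraries. So did the markers of meninges and of brainstem and midbrain and, by small margins, those of astrocytes and Purkinje cells. The 8 oligodendrocyte markers summed to 5146 and 5915 RPM against 7307 and 7305, with a median log2 fold change of -0.45. Of them 1 was called by limma and 2 by limma-voom, and 5 had an unadjusted p under 0.05, beside 10.2% of all genes. Mobp, a myelin protein, had 46 and 42.7 RPKM against 89.4 and 68.5 RPKM (-0.82, SE 0.14, adjusted p = 0.022), a call lost without wild type 2. Of the 8, 2 had positive values. Cnp had 268 and 365 RPKM against 244 and 292 RPKM (0.23, SE 0.15). The precursor marker Pdgfra had 14.6 and 16.8 RPKM against 13.2 and 14.5 RPKM (0.18, SE 0.15). Microglia markers summed to 219.5 and 219 RPM against 289.8 and 279, with a median of -0.41. None of 7 was called by either tool, 2 had an unadjusted p under 0.05, and 1, Cx3cr1, had a positive value (0.25, SE 0.24). The part of these sums in the change of any other gene was not tested.

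Choroid plexus markers differed more between the wild-type libraries than any other marker list. The choroid plexus is the epithelium that secretes cerebrospinal fluid, and a dissected cerebellum can hold some of it. The 9 markers of the list summed to 5337 and 5571 RPM in the knockout libraries, with wild type 2 at 2314 RPM and wild type 3 at 108 RPM. Ttr, which carries thyroid hormone, had 38433 and 39594 RPKM in the knockout libraries, with wild type 2 at 16459 RPKM and wild type 3 at 522 RPKM. Kl, encoding Klotho, had 1135 and 1099 RPKM against 511 and 41.6 RPKM. On the log2 scale the gap between the wild-type libraries was larger in both genes than that between wild type 2 and the knockout. Neither was called by limma, while limma-voom called Kl (adjusted p = 0.0373) and did not call Ttr (adjusted p = 0.0647).

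Of 8 choroid plexus markers compared 1 was called by limma, Prlr, and 3 by limma-voom. The median was 2.93, 7 had an unadjusted p under 0.05, beside 10.2% of all genes, and Otx2 was the lowest of the 8 (-0.02, SE 0.23). Without wild type 3 the log2 fold change was 2.45 for Prlr (adjusted p = 0.000216) and 1.24 for Ttr (adjusted p = 4.94e-06), and without wild type 2 it was 4.79 and 6.22. These were the 2 markers called without wild type 3, where the other 6 were not and the median of the list was 1.14. Kl then had 1.13 (adjusted p = 0.0588), Folr1 1.26 (adjusted p = 0.415) and Aqp1 1.16 (adjusted p = 0.75). Without wild type 2, by contrast, 7 of the 8 were called and the median was 4.67. Fits with 1 wild-type library assume that it varies as other libraries do.

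Of the 131 called genes, 5 had wild-type libraries that differed at least 2-fold. Beside Prlr these were Abca4, Enpp2, 1500015O10Rik and Col4a1. Enpp2, which makes lysophosphatidic acid, had 30447 and 30070 RPKM in the knockout libraries, with wild type 2 at 15929 RPKM and wild type 3 at 5957 RPKM. 1500015O10Rik had 42 and 38.7 RPKM against 17.7 and 8.03 RPKM. In Prlr, Abca4, Enpp2 and 1500015O10Rik wild type 3 was the lowest library, as in the choroid plexus sum, and in Col4a1 wild type 2 was. Without wild type 3 the log2 fold change was 1.63 for Abca4, 0.93 for Enpp2, 1.19 for 1500015O10Rik and 2.68 for Col4a1, all still called. Without knockout 1 or knockout 3 the Enpp2 call was lost (adjusted p = 0.0652 and 0.0615), as was that of Abca4 (adjusted p = 0.0802 and 0.0528). The part of choroid plexus content in these changes was not tested.

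**Figure D5:**
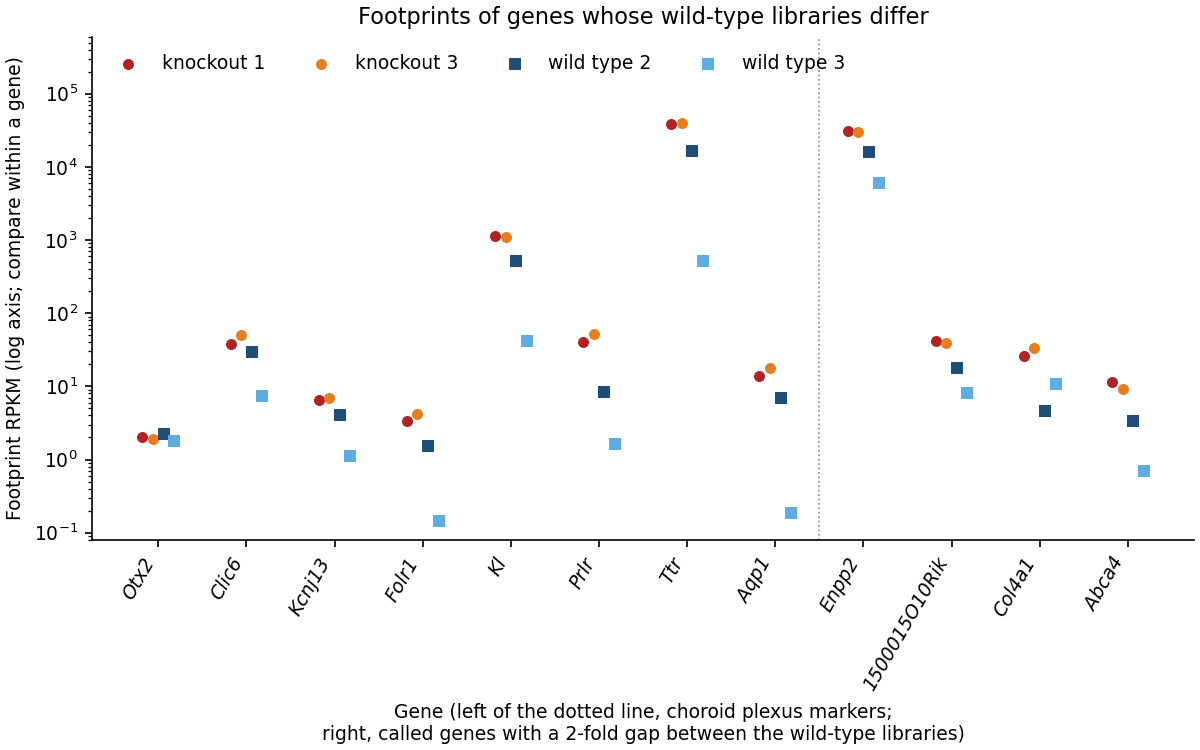
Footprint RPKM on a log axis in knockout 1 and 3 (circles) and wild type 2 and 3 (squares) for the choroid plexus markers (left of the dotted line) and the other called genes whose wild-type libraries differ at least 2-fold (right). Wild type 3 is the lowest library in each gene shown except Col4a1, and for Ttr it stands at 522 RPKM against 16459 RPKM in wild type 2.

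Endothelial and mural markers summed to 198 and 177 RPM in the knockout against 194 and 133, and none of 7 was called by either tool (1 at an unadjusted p under 0.05). The 6 meningeal markers summed to 1930 and 2282 RPM in the knockout against 2334 and 2426, with a median of -0.10. Of them Igfbp2, which binds insulin-like growth factors, rose from 158 and 145 RPKM in the wild type to 258 and 377 RPKM in the knockout (1.04, SE 0.19, adjusted p = 0.0296). Dcn, a collagen-binding proteoglycan, had 512 and 589.5 RPKM against 739.9 and 830.1 RPKM and was not called. Of 9 brainstem and midbrain markers 2 passed the filter, Slc17a6 and Th, while the Hox genes, Tph2 and Slc6a4 did not. The median of the 2 was -0.39, neither was called by either tool, and 1 had an unadjusted p under 0.05. The 4 markers with reads in every library summed to 143 and 126 RPM in the knockout against 182 and 174. Most of these reads were of Slc17a6, with 5327 and 3083 reads in the knockout against 6083 and 4248. Whether the samples differed in brainstem content was not tested. Of 4 blood markers 3 passed the filter, with sums of 15.6 and 14.4 RPM against 16.6 and 14.5, and none was called by either tool or had an unadjusted p under 0.05.

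Genes next to the targeted locus were looked at separately. Within 10 Mb on either side of Arntl on chromosome 7, 95 genes were compared and 3 were called (3.16%), beside 1.12% of all genes. These were the targeted gene Arntl itself, the E-box clock gene Wee1 and Olfml1. Olfml1, an olfactomedin-like secreted protein, had 12.6 and 10.3 RPKM in the knockout against 3.55 and 3.81 RPKM in the wild type. Its footprints rose by 1.63 (SE 0.21, adjusted p = 0.00396), beside a total RNA change of 0.60 (SE 0.13, adjusted p = 0.00755). The difference of 1.04 (SE 0.26) was not called (adjusted p = 0.495). Over all of chromosome 7, 8 of 842 genes were called (0.95%), Arntl included.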

How the data were processed

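The authors' deposited values are RPKM, reads scaled by depth and a length, beside a mean read count per gene, a score that the authors computed over the 8 libraries. A second deposited table holds the authors' ratio of footprint RPKM over total RNA RPKM in an animal. Bowtie, STAR, Cufflinks and mm10 are named in the submitters' processing notes, while roles and versions are not given in the sources used here. Total RNA of knockout 2 and wild type 1 was not analysed here. The mean read count equalled the geometric mean of the 8 read counts, and the steps between low RPKM values gave relative depths and whole reads (within 0.1 of a whole number). limma 3.58.1 (R 4.3.3) was fitted to log2(RPKM + 0.01) of the 4 footprint libraries for genes at or above a mean read count of 100, with a variance trend on log2 mean read count. The small pseudocount was used because 1 RPKM stands for different read numbers in different genes.

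Log2 fold changes are given as knockout minus wild-type values with limma's SE, and adjusted p is limma's after Benjamini-Hochberg adjustment over 11676 genes. Counts by limma-voom used the recovered reads. Footprints per total RNA were tested within each animal, since the labels' protocols state that both came from 1 lysate. Replicate numbers pair those libraries; knockout and wild-type animals are not paired. The series' design text calls the replicates biological. Gene spans are those of GENCODE M21, in which 11668 of the genes were found.

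Named genes were Arntl, the 15 largest called changes each way, all clock genes, and for each other list the called genes and most-read members; some of these are not reported here, and others were added after their values were seen, among them those that illustrate a list. The genes and lists were chosen with earlier results of these data known, so a list is described by counts and its median. Alternatives were other pseudocounts, filters, scalings and variance trends, limma-voom, a fit with all libraries, and leaving out each library.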

Additional observations from a re-analysis of the deposited data

Results flagged for a closer look

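The footprint change of Arntl minus its total RNA change was -1.85 log2 units, and this difference between the kinds of library passed its own test (limma on the ratio within each animal, adjusted p = 3.57e-05). Groups of 2 libraries are too small for a test of outlying samples.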

How the results depend on the processing

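Of the 131 genes called in footprints none changed sign under any alternative. Pseudocounts of 0.1 and 1 kept 130 and 116 of them, quantile normalization 126, median centring 129 and limma-voom 127. The count itself was 46 with no filter, 54 with the trend on mean log2 RPKM, 17 without a variance trend and 418 with all libraries in one fit, and between 102 and 185 with 1 library left out. The fits without a trend, with a trend on RPKM and with no filter kept 17, 50 and 45 of the 131. The cause was not tested. E-box clock genes called were 8 with the trend on mean log2 RPKM and 3 without a variance trend, against 13. Car8, not called at 0.02, was -0.54 under quantile normalization (adjusted p = 0.0458).

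Genes called for footprints per total RNA were 2 with a pseudocount of 0.1 or 1, and between 1 and 280 with 1 animal left out. With no replicate block, which ignores that both libraries of an animal share a lysate, 1 gene was called, again Arntl. Total RNA calls, 1270 among these genes, lay between 510 and 1900 with 1 animal left out. Genes under about 200 reads, such as Rpl13a and Ciart, are limited by depth.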

Other observations

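The genes of this section were chosen after their values were seen. Among called genes on no list, several have known roles in neurons. Gap43, a protein of growing axons, had 162 and 145 RPKM in the knockout against 85.4 and 95.4 RPKM in the wild type (0.77, adjusted p = 0.0159). Cabp7, a calcium-binding protein, had 21.2 and 21.4 RPKM against 9.68 and 7.45 RPKM (1.33, adjusted p = 0.00194). Plk5, a polo-like kinase of neurons and glia, had 242 and 351 RPKM against 811 and 982 RPKM and fell by 1.61 on the log2 scale (adjusted p = 0.0051). In these 3 genes the genotypes did not overlap, and the Gap43 call was lost without wild type 2. The netrin-G genes went opposite ways, Ntng2 with 1.69 (adjusted p = 0.0209) and Ntng1 with -1.15 (adjusted p = 0.0419). The Ntng2 call was lost without wild type 3 and the Ntng1 call in 3 of the 4 fits with a library left out.

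Col4a2, the partner of Col4a1, had 49.8 and 75.7 RPKM against 17.1 and 21.3 RPKM (1.69, adjusted p = 0.00921). Plat, the tissue plasminogen activator, had 899 and 904 RPKM against 452 and 434 RPKM (1.03, adjusted p = 0.00196). Slc20a2, a phosphate transporter, had 62.4 and 65.4 RPKM against 19.2 and 21.2 RPKM (1.66, adjusted p = 6.16e-05). Wif1, a secreted inhibitor of Wnt ligands, had 6.06 and 5.33 RPKM against 1.81 and 1.63 RPKM (1.72, adjusted p = 0.028), a call lost without knockout 1 or wild type 3. Hsd11b1, which regenerates active glucocorticoid, had 93 and 88.7 RPKM against 166 and 177 RPKM (-0.92, adjusted p = 0.00759). Tmsb4x, an actin-sequestering peptide, had 168 and 139 RPKM against 310.1 and 294 RPKM (-0.98, adjusted p = 0.00354).

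Some genes below the read filter were listed at 0 in both footprint libraries of one genotype and at 1 RPKM or more in both of the other. There were 7 listed at 0 in the wild type, led by Cnksr1, with 11.3 and 15.7 RPKM of footprints in the knockout and total RNA of 19.5 and 19.9 RPKM in the knockout against 2.22 and 3.75 RPKM in the wild type. There were 15 listed at 0 in the knockout. Among these, Rnasek had 3.76 and 7.51 RPKM of footprints in the wild type, and its total RNA was 9.72 and 7.21 RPKM in the knockout against 7.59 and 7.58 RPKM.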
